A study of Mus musculus with 8 samples.

Results

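The genes described here are 42 genes of the cell cycle, chosen by name: 12 that act in S phase, when DNA is copied, and 30 that act in mitosis, when the copies are separated. They are 42 of the 55291 genes with a row in the count table, and all 42 passed the filter on low counts that 19470 genes passed. RNA was taken from the whole lumbar spinal cord of 8 male mice on a C57BL/6J background, with 4 mice in each of 2 genotypes, 1 library per mouse. All 8 mice carried the SOD1G93A transgene, a mutant human superoxide dismutase used as a model of amyotrophic lateral sclerosis. They also carried Cx3cr1 Cre/+, from which an inducible Cre is made in microglia and other Cx3cr1-expressing cells. This Cre deletes the floxed gene once tamoxifen is given. The 4 Ager-deleted animals (E1776, E5231, E5248, E5568) were SOD1G93A Ager fl/fl Cx3cr1 Cre/+, and the 4 Cre-expressing control animals (E5386, E5642, E6578, E6732) were SOD1G93A Ager+/+ Cx3cr1 Cre/+. Ager encodes RAGE, a cell surface receptor for glycated proteins and other ligands. Every mouse of both genotypes received 5 injections of tamoxifen (0.2 µg each) at 12 weeks of age, and the sample labels give an age of 120 days at sacrifice, whereas the study's text describes end-stage tissue. The deletion is limited to Cx3cr1-expressing cells, while the RNA comes from every cell of the cord, so other cells keep Ager. Values for single mice are given below in the order E1776, E5231, E5248, E5568 for the Ager-deleted mice and E5386, E5642, E6578, E6732 for the controls, as CPM, the count of a gene relative to the total of its library after TMM scaling.

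A cell that is to divide loads the MCM2-7 helicase onto DNA in G1, copies its genome in S phase with the help of the PCNA sliding clamp and a supply of deoxynucleotides, and then builds a spindle under the control of CDK1 with cyclins A and B. The passage from G1 to S phase is set by cyclin D with CDK4 and CDK6, which relieve the repression of E2F target genes by RB. Genes of S phase are mostly transcribed under E2F, whereas genes of mitosis are transcribed later by the MuvB complex with MYBL2 and then FOXM1, which acts through a promoter element called the cell cycle genes homology region (CHR), often together with CCAAT boxes bound by NF-Y. Most neurons and oligodendrocytes of the adult cord have left the cell cycle. Microglia divide during disease in SOD1 mutant mice, oligodendrocyte precursors divide throughout life, and blood cell precursors of the bone marrow divide rapidly.

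The promoters of 8 of the genes are shown as examples of the elements described above. Each is the 200 bases before the transcription start site given by RefSeq on GRCm38.p6, the assembly that mm10 names, read 5′ to 3′ on the strand of the gene. Capitals mark matches on either strand to the CHR letters (TTTGAA or TTCGAA), to CCAAT, or to E2F letters (TTGGCGC or TTCGCGC). The E2F letters can overlap each other, and TTGGCGC can share bases with a CCAAT box. Mki67, Top2a, Ccnb2 and Kif11 were taken as mitotic genes with CHR and CCAAT matches, Bub1b as the mitotic gene whose level across mice was least like that of Mki67, Mcm5 and Mcm6 as S phase genes with E2F matches, and Rrm1 as the S phase gene with the steadiest level.
Mki67, chr7:135716380-135716579, minus strand: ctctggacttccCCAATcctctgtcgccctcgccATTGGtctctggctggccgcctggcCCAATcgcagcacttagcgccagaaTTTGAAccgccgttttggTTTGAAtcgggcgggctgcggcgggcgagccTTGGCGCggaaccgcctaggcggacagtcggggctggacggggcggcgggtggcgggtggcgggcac
Top2a, chr11:99024190-99024389, minus strand: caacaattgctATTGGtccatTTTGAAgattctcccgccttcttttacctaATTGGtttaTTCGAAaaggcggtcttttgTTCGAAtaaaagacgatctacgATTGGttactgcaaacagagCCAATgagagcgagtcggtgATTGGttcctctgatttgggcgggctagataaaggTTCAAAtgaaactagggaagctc
Ccnb2, chr9:70421555-70421754, minus strand: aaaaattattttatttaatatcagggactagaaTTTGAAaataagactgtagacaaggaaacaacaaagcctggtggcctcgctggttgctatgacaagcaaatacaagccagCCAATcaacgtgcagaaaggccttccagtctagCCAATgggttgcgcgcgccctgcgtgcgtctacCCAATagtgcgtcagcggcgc
Kif11, chr19:37376182-37376381, plus strand: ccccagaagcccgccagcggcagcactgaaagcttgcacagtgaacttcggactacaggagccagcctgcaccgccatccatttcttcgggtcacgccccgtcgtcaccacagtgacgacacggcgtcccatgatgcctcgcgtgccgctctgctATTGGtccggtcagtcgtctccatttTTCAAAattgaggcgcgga
Bub1b, chr2:118598011-118598210, plus strand: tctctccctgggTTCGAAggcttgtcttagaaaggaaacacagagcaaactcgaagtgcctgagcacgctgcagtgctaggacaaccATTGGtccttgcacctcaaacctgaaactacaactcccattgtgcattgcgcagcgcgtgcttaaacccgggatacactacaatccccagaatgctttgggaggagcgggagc
Mcm5, chr8:75109309-75109508, plus strand: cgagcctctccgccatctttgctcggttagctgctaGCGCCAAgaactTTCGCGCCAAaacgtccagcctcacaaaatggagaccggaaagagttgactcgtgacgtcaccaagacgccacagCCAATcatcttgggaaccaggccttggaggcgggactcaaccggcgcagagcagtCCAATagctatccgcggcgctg
Mcm6, chr1:128359706-128359905, minus strand: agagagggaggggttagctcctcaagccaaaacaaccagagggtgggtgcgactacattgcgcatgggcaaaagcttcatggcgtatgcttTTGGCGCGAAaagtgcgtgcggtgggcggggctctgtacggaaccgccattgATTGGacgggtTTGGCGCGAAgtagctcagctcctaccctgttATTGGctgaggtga
Rrm1, chr7:102441495-102441694, plus strand: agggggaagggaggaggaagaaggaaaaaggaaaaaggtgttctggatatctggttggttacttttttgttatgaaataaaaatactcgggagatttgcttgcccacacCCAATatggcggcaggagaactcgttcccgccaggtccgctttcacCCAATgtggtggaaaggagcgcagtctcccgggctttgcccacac

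RefSeq promoters, counted from 250 bases before the start site to 50 after it, were found for 36 of the 42 genes, 25 mitotic and 11 S phase. Ccna2, Pbk, Kif20a, Aurkb, Tpx2 and Mcm4 were not matched. CHR letters stood in 20 of 25 mitotic promoters (80.0%) and 2 of 11 S phase promoters (18.2%), beside 21.7% of the promoters of all 27025 genes. CCAAT stood in 21 of 25 mitotic promoters (84.0%) and 9 of 11 S phase promoters (81.8%), beside 41.1% of all genes. E2F letters stood in 5 of 25 mitotic promoters (20%) and 5 of 11 S phase promoters (45.5%), beside 4.47% of all genes. The S phase and mitotic lists thus differed most in CHR letters, whose share in S phase promoters was near that in all promoters. Many of the CHR matches lay after the start site, so that with the upstream bases alone the mitotic count was 12 of 25 (48.0%, beside 19.6% of all genes). A match to these letters is a description of the sequence and does not show that a factor was bound.

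**Figure D1:**
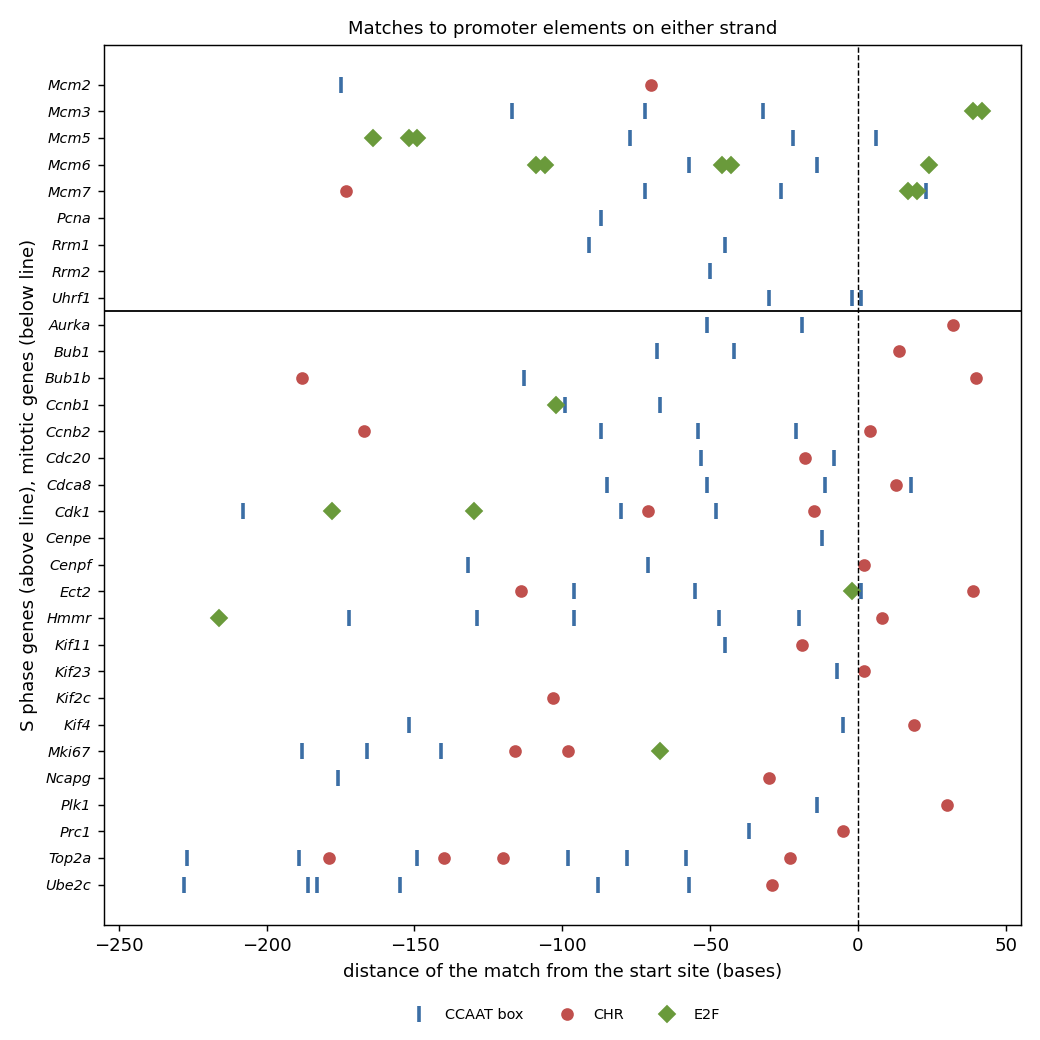
Positions of matches to CHR, CCAAT and E2F letters in the promoters of the 31 genes that had a match at their first listed start site, in bases from the start site (dashed line), with S phase genes above the solid line and mitotic genes below it. CHR matches (circles) were found in 20 mitotic genes and 2 S phase genes, and CCAAT matches (bars) in most genes of both lists.

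Library totals ran from 31148047 to 40324897 counts per mouse, and the counts of the 42 genes lay between 27 in 1 mouse for Bub1 and 1882 for Pcna. The detection floor was set at 3 counts, or 0.0729 to 0.0975 CPM depending on the mouse (counting error alone), and every cell cycle gene lay above it in every mouse. All markers of microglia, neurons (with Chat, the enzyme of acetylcholine synthesis), astrocytes, oligodendrocytes and oligodendrocyte precursors had counts in every mouse. Some libraries had high levels of markers of other tissues, whose origin was not tested. The 10 markers of skeletal muscle summed to 823 and 1360 CPM in the controls E5386 and E5642 and to between 6.81 and 24.0 CPM in the other 6 mice, and 6 liver markers summed to 582 CPM in the control E6732 and to at most 2.56 CPM elsewhere. Genotype comparisons below are therefore also given without those controls.

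Ager, the targeted gene, was at 0.889, 1.51, 1.02 and 1.34 CPM in Ager-deleted mice against 1.53, 2.22, 2.18 and 2.41 CPM in controls. Every Ager-deleted mouse lay below every control. The log2 fold change was -0.81 (SE 0.22, 95% interval -1.29 to -0.33), the edgeR exact test gave an adjusted p of 0.252 over 19470 genes, and the exact two-sided permutation test gave p = 0.0286, its lower limit with 4 mice per genotype. The count covers all exons of Ager, deleted or not, in all cells of the cord.

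The cell cycle genes did not separate the genotypes. In edgeR's exact test 0 of the 42 genes passed an adjusted p of 0.05, beside 14 of 19470 genes (0.0719%), and the adjusted p was 1 for every one of them. At an unadjusted p under 0.05 the count was also 0 of 42, beside 829 of 19470 genes (4.26%), and it was 0 of 42 with the quasi-likelihood test (6.71% of all genes), DESeq2 (6.54%) and limma-voom (6.11%). The groups overlapped for all 42 genes, whereas they did not overlap for 755 of 19470 genes (3.88%). The log2 fold changes, taken as Ager-deleted over control, lay between -0.36 (Ncapg) and 0.29 (Kif2c), with a median of 0.02 over the 12 S phase genes, 0.06 over the 30 mitotic genes and 0.01 over all genes tested. Of the S phase genes 7 were positive and 5 negative, and of the mitotic genes 21 were positive and 9 negative; none passed a test in either direction. In RNA of whole cord, fewer dividing cells and less of these mRNAs per cell cannot be told apart.

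The intervals show what size of difference these mice leave possible. All 42 of the 95% intervals lay within a log2 fold change of 1 in either direction, and those of 11 of 12 S phase genes and 14 of 30 mitotic genes lay within 0.5. The median standard error was 0.13 for S phase genes and 0.19 for mitotic genes, beside 0.12 over all genes tested. Without the controls E5386 and E5642, high in muscle markers, the median log2 fold change was 0.04 for S phase genes and 0.12 for mitotic genes. Without the control E6732, high in liver markers, it was 0.11 and 0.10. In both cases 0 of 42 genes were called. Leaving out the Ager-deleted mouse E5231 turned the medians negative (-0.01 and -0.04), and leaving out the control E6578 did the same (-0.04 and -0.01).

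**Figure D2:**
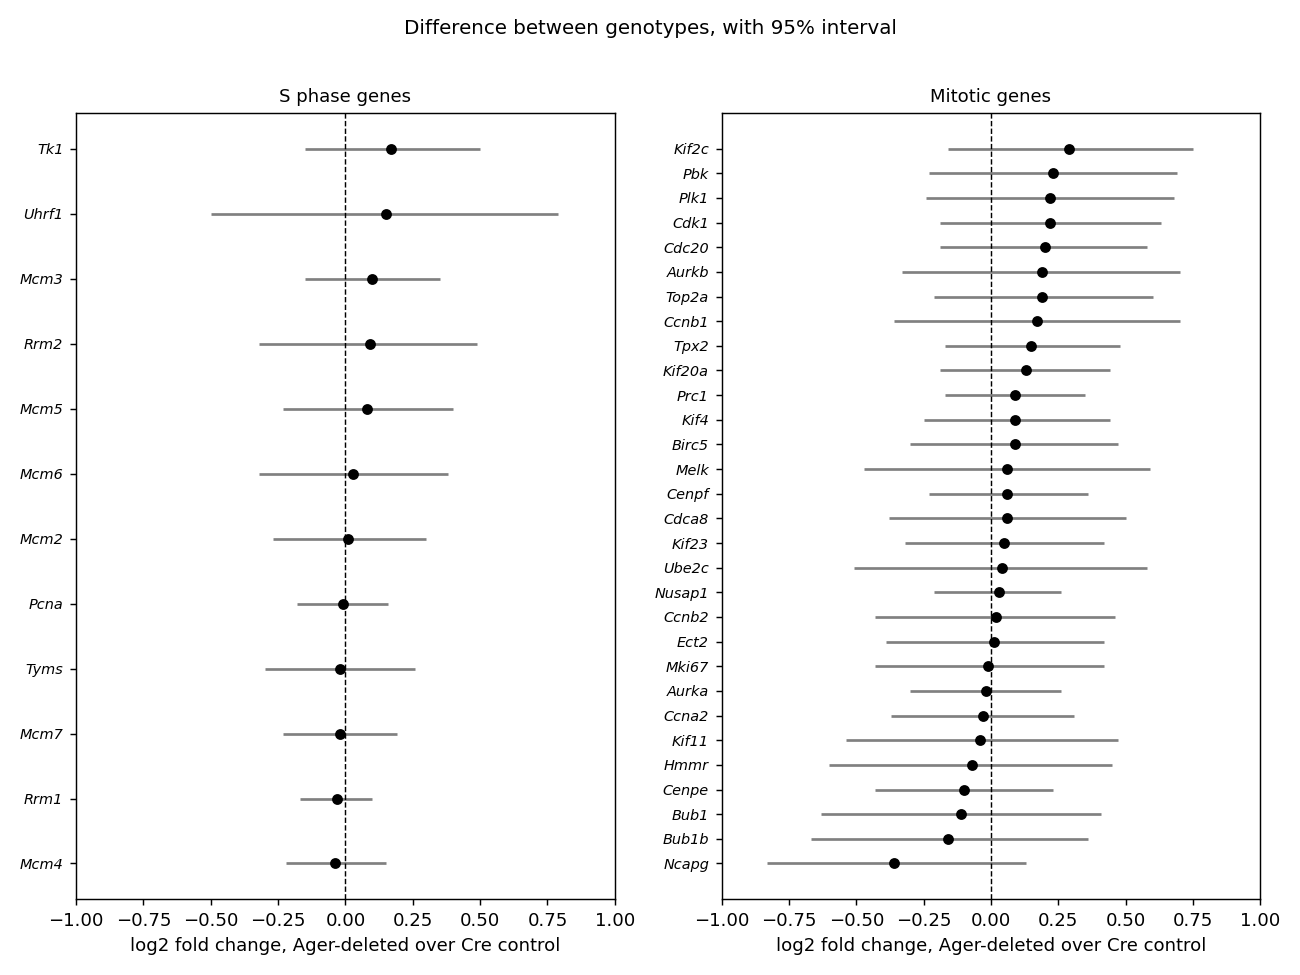
Log2 fold change of each S phase gene (left) and mitotic gene (right), Ager-deleted over Cre control, with points for the estimate from edgeR and lines for the 95% interval of the quasi-likelihood fit (4 mice per genotype). Every interval crosses 0, with estimates from -0.36 for Ncapg to 0.29 for Kif2c.

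Among the S phase genes, the 6 subunits of the MCM2-7 helicase, which unwinds DNA at the replication fork, had log2 fold changes between -0.04 (Mcm4) and 0.10 (Mcm3), 4 positive and 2 negative, with 0 called. Mcm2 (chr6:88883474-88898780) was at 9.19, 10.6, 9.48 and 12.1 CPM in Ager-deleted mice against 10.8, 8.83, 9.30 and 12.0 CPM in controls. Mcm5 was at 6.88, 8.52, 6.09 and 6.88 CPM in Ager-deleted mice against 7.69, 6.61, 5.40 and 7.05 CPM in controls. Mcm6 was at 12.2, 18.5, 12.6 and 17.2 CPM in Ager-deleted mice against 15.7, 13.4, 12.5 and 17.6 CPM in controls. For Mcm5 and Mcm6 the highest value was that of the Ager-deleted mouse E5231 and the lowest values came from both genotypes. The log2 fold changes were 0.01 for Mcm2, 0.08 (SE 0.14, 95% interval -0.23 to 0.40) for Mcm5 and 0.03 for Mcm6. Mcm3, Mcm4 and Mcm7 ranged over mice by 1.40-fold, 1.22-fold and 1.36-fold. Mcm7 shares exons with genes on both strands, so its count is uncertain, since the strand setting of the counting is not given in the sources used here.

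Pcna encodes the sliding clamp that holds DNA polymerase to its template and is also used in DNA repair. It was at 41.3, 50.7, 40.5 and 45.7 CPM in Ager-deleted mice against 45.6, 46.7, 43.3 and 43.9 CPM in controls. Its levels differed by 1.25-fold from the lowest mouse to the highest, and the log2 fold change was -0.01 (SE 0.08, 95% interval -0.18 to 0.16). Per kilobase of exon, Pcna was the most abundant of the 42 genes, with a mean of 18.6 CPM per kilobase over the 8 mice beside 6.69 for Mcm4 and 1.79 for Mki67. Uhrf1, which brings the maintenance DNA methyltransferase to newly copied DNA, was at 3.78, 4.61, 3.10 and 5.56 CPM in Ager-deleted mice against 4.59, 2.90, 2.15 and 5.67 CPM in controls. Its lowest and highest values, 2.64-fold apart, were those of the controls E6578 and E6732, the widest range over mice of the 42 genes, and its interval was also the widest among the S phase genes (0.15 (SE 0.29, 95% interval -0.50 to 0.79)).

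The subunits of ribonucleotide reductase, which makes deoxynucleotides, varied to different extents. Rrm1, the large subunit, was at 35.0, 37.7, 35.3 and 38.6 CPM in Ager-deleted mice against 38.2, 38.1, 35.1 and 38.4 CPM in controls. Rrm2, the small subunit, whose protein is made in S phase and degraded in mitosis, was at 6.96, 8.44, 6.83 and 10.4 CPM in Ager-deleted mice against 7.82, 9.29, 5.46 and 8.10 CPM in controls. Rrm1 thus differed by 1.10-fold over the 8 mice, the narrowest range of the 42 genes, and Rrm2 by 1.90-fold. The log2 fold change was -0.03 (SE 0.06, 95% interval -0.17 to 0.10) for Rrm1 and 0.09 (SE 0.18, 95% interval -0.32 to 0.49) for Rrm2. Tyms, thymidylate synthase, was at 4.67, 4.80, 3.87 and 4.39 CPM in Ager-deleted mice against 4.38, 5.13, 3.90 and 4.57 CPM in controls. Tk1, thymidine kinase of the salvage pathway, was at 5.71, 7.12, 6.09 and 5.51 CPM in Ager-deleted mice against 6.07, 5.90, 4.10 and 5.57 CPM in controls. Both overlapped between genotypes, with log2 fold changes of -0.02 for Tyms and 0.17 (SE 0.15, 95% interval -0.15 to 0.50) for Tk1, the latter the largest of the S phase genes (p = 0.338 in the edgeR exact test).

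Of the mitotic genes, 3 shape chromosomes. Mki67 (chr7:135689784-135716361, GRCm38), which encodes the Ki-67 protein that coats mitotic chromosomes and is used as a marker of dividing cells, was at 13.5, 23.0, 16.3 and 19.2 CPM in Ager-deleted mice against 18.4, 22.0, 12.4 and 19.6 CPM in controls. The mean was 18 ± 4.08 CPM (SD, n = 4) with Ager deleted and 18.1 ± 4.07 CPM (SD, n = 4) without, and the log2 fold change was -0.01 (SE 0.19, 95% interval -0.43 to 0.42). Mki67 thus varied 1.85-fold between mice and hardly at all between genotype means. Top2a, the topoisomerase that disentangles sister chromatids, was at 12.3, 18.7, 13.2 and 16.1 CPM in Ager-deleted mice against 15.0, 13.6, 8.81 and 15.1 CPM in controls. Its highest value came from an Ager-deleted mouse (E5231) and its lowest from a control (E6578), and the log2 fold change was 0.19 (SE 0.18, 95% interval -0.21 to 0.60). Ncapg, a subunit of condensin I, was at 1.19, 1.43, 1.58 and 1.63 CPM in Ager-deleted mice against 1.5, 2.32, 1.33 and 2.29 CPM in controls. The controls E5642 and E6732 lay above the Ager-deleted mice, while E5386 and E6578 lay among them. Its log2 fold change of -0.36 (SE 0.22, 95% interval -0.83 to 0.13) was the largest in size of the 42 genes, with p = 0.163 in the edgeR exact test and p = 0.257 in the exact permutation test.

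**Figure D3:**
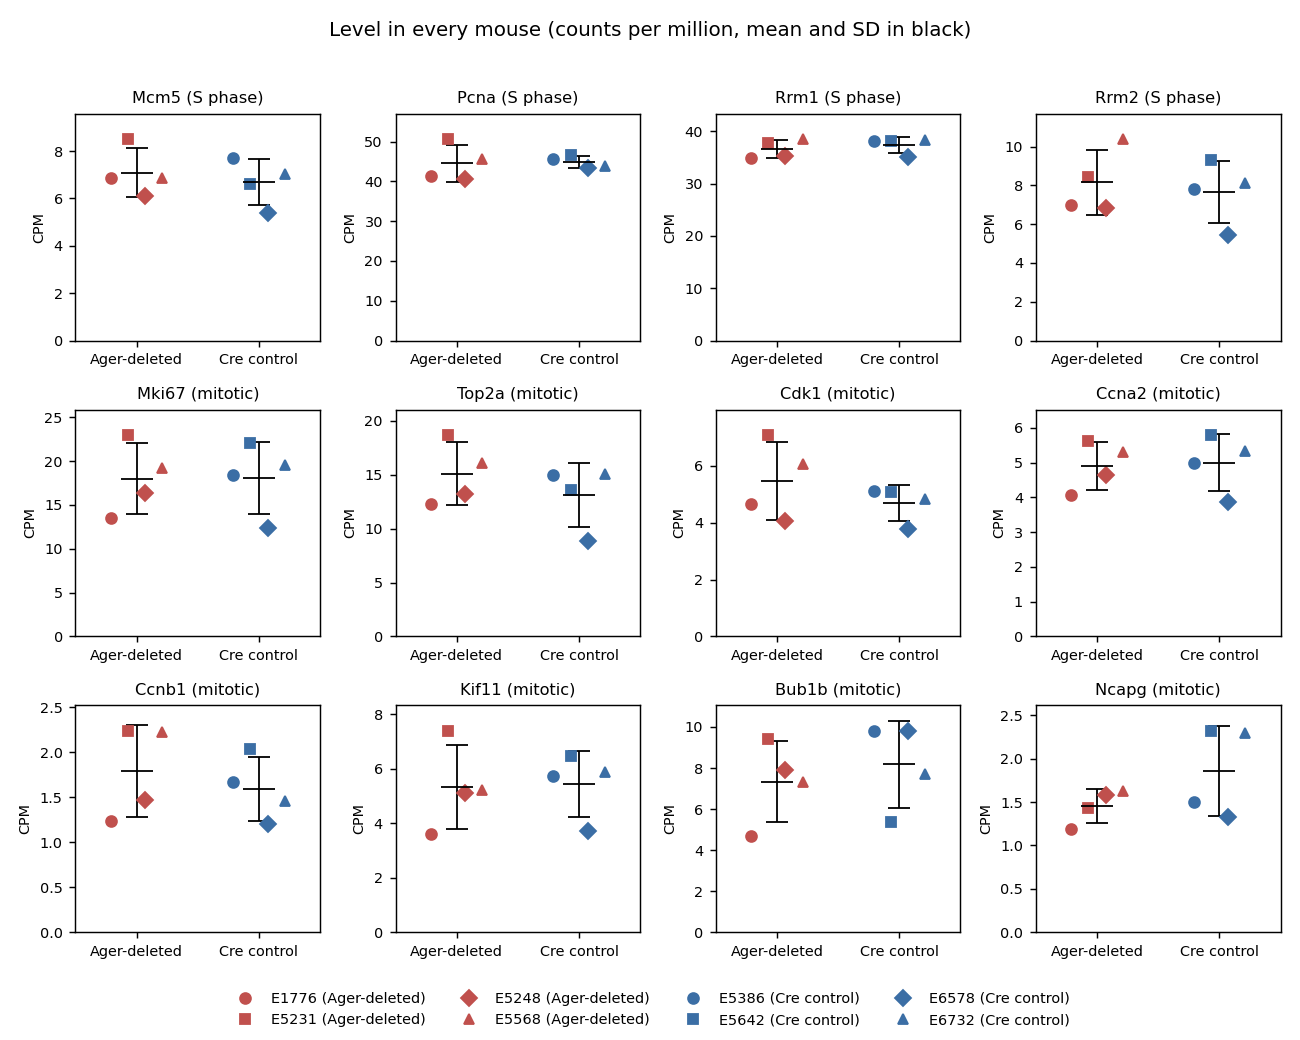
Level of 12 cell cycle genes in every mouse, in CPM on axes that start at 0, with 4 Ager-deleted mice (red) and 4 Cre controls (blue) and the mean ± SD of each genotype in black. The genotypes overlap in every panel, Rrm1 spans the narrowest range (35.0 to 38.6 CPM), and E5231 and E6578 are at or near the extremes for most mitotic genes.

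The cyclins and mitotic kinases comprised 8 genes, 6 with positive and 2 with negative log2 fold changes and 0 called. Cdk1, the kinase that drives entry into mitosis, was at 4.65, 7.09, 4.06 and 6.07 CPM in Ager-deleted mice against 5.11, 5.06, 3.77 and 4.84 CPM in controls. Ccna2, cyclin A2, was at 4.06, 5.61, 4.63 and 5.30 CPM in Ager-deleted mice against 5, 5.80, 3.87 and 5.33 CPM in controls. The highest Cdk1 values were those of the Ager-deleted mice E5231 and E5568, yet the other Ager-deleted mice lay at or below the controls' middle values. The log2 fold change was 0.22 (SE 0.18, 95% interval -0.19 to 0.63) for Cdk1 and -0.03 for Ccna2. The B cyclins, which are destroyed at anaphase, were lower. Ccnb1 was at 1.24, 2.24, 1.47 and 2.22 CPM in Ager-deleted mice against 1.67, 2.04, 1.20 and 1.46 CPM in controls, and its log2 fold change was 0.17 (SE 0.24, 95% interval -0.36 to 0.70). Ccnb2 was at 2.46, 3.15, 2.12 and 2.40 CPM in Ager-deleted mice against 2.84, 3.09, 1.76 and 2.33 CPM in controls, with a log2 fold change of 0.02. For both genes E5231 was highest and E6578 lowest. A pseudogene, Ccnb2-ps, held up to 124 counts in a mouse beside up to 117 for Ccnb2, so reads may have been shared between the pair and the level of Ccnb2 is uncertain.

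Plk1, a kinase of centrosome maturation and mitotic exit, was at 2.34, 2.91, 1.92 and 2.64 CPM in Ager-deleted mice against 2.49, 1.82, 1.5 and 2.58 CPM in controls, with a log2 fold change of 0.22 (SE 0.21, 95% interval -0.24 to 0.68). Pbk, a mitotic kinase, was at 3.48, 6.01, 4.32 and 5.22 CPM in Ager-deleted mice against 4.24, 4.04, 2.86 and 5.08 CPM in controls, with a log2 fold change of 0.23 (SE 0.21, 95% interval -0.23 to 0.69). Both were among the 5 genes with the largest log2 fold changes in size, along with Ncapg, Kif2c and Cdk1, and for each of the 5 the genotypes overlapped. Aurka, the kinase of spindle poles, and Melk had log2 fold changes of -0.02 and 0.06; Aurka ranged over mice by only 1.22-fold.

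The chromosomal passenger complex, the kinetochore and the spindle checkpoint were represented by 7 genes, 4 positive and 3 negative, with 0 called. Aurkb, the kinase of the passenger complex, was at 1.65, 2.80, 1.35 and 1.96 CPM in Ager-deleted mice against 1.97, 1.51, 1.43 and 1.90 CPM in controls. Birc5, which encodes survivin of the same complex, was at 2.97, 3.96, 2.43 and 3.46 CPM in Ager-deleted mice against 3.34, 3.24, 2.50 and 2.99 CPM in controls. E5231 was highest and E5248, of the same genotype, lowest for both genes, and the log2 fold changes were 0.19 (SE 0.23, 95% interval -0.33 to 0.70) for Aurkb and 0.09 for Birc5. Cdca8, which encodes borealin, had a log2 fold change of 0.06. Bub1b, which encodes the checkpoint kinase BubR1, was at 4.70, 9.41, 7.93 and 7.34 CPM in Ager-deleted mice against 9.79, 5.40, 9.82 and 7.71 CPM in controls. Here the control E6578, lowest for most mitotic genes, was highest, and the lowest values came from E1776 and E5642; the log2 fold change was -0.16 (SE 0.23, 95% interval -0.67 to 0.36). Cenpf, a large kinetochore protein, was at 4.11, 5.01, 4.40 and 5.20 CPM in Ager-deleted mice against 4.24, 5.06, 3.84 and 4.77 CPM in controls, with a log2 fold change of 0.06. Bub1 and the kinetochore motor Cenpe had log2 fold changes of -0.11 and -0.10.

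The 5 kinesins, motors that slide and disassemble spindle microtubules, comprised 4 positive and 1 negative log2 fold change with 0 called, and E5231 was the highest mouse for all 5. Kif11, which pushes the spindle poles apart, was at 3.61, 7.39, 5.11 and 5.20 CPM in Ager-deleted mice against 5.74, 6.48, 3.71 and 5.86 CPM in controls. Kif2c, which depolymerizes microtubules at centromeres, was at 1.63, 2.16, 1.33 and 1.68 CPM in Ager-deleted mice against 1.26, 1.67, 1.04 and 1.56 CPM in controls. The log2 fold change was -0.04 for Kif11 and 0.29 (SE 0.21, 95% interval -0.16 to 0.75) for Kif2c, the latter with p = 0.236 in the edgeR exact test and p = 0.171 in the exact permutation test, the lowest permutation p of the 42 genes. Kif20a, Kif23 and Kif4, motors of the anaphase midzone, had log2 fold changes of 0.13, 0.05 and 0.09.

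The genes of anaphase proteolysis were Cdc20, an activator of the anaphase-promoting complex, and Ube2c, its ubiquitin-conjugating enzyme. Cdc20 was at 3.05, 4.56, 2.65 and 3.54 CPM in Ager-deleted mice against 2.71, 2.99, 3.12 and 3.21 CPM in controls. Ube2c was at 1.70, 3.5, 2.20 and 3.26 CPM in Ager-deleted mice against 2.11, 3.21, 2.18 and 2.89 CPM in controls. E5231 was again highest for both, and the log2 fold changes were 0.20 (SE 0.17, 95% interval -0.19 to 0.58) for Cdc20 and 0.04 (SE 0.24, 95% interval -0.51 to 0.58) for Ube2c. Ube2c shares an exon with Tnnc2, a muscle gene on the other strand. Tnnc2 was at 2.65 and 3.18 CPM in the controls E5386 and E5642, high in muscle markers, and at most 0.0325 CPM elsewhere. Ube2c in those 2 controls lay within the range of the other 6 mice. Of the 5 genes of spindle assembly and cytokinesis, Nusap1, Prc1, Tpx2 and Ect2 had positive log2 fold changes of 0.03, 0.09, 0.15 and 0.01, and Hmmr a negative one of -0.07, with 0 called. Over the 16 genes without values for every mouse above, the log2 fold changes lay between -0.11 and 0.15 and the smallest p in the edgeR exact test was 0.402. In all, 12 of the 42 genes share an exon with a gene on the other strand. They are Mcm7, Tk1, Ncapg, Ccna2, Plk1, Cdca8, Kif20a, Kif4, Cdc20, Ube2c, Nusap1 and Prc1. The counts of all of them are uncertain for the reason given for Mcm7.

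Although they did not follow genotype, most of the cell cycle genes shared their highest mouse and their lowest mouse. The Ager-deleted mouse E5231 had the highest level of 20 of the 30 mitotic genes (66.7%) and 6 of the 12 S phase genes (50%), beside 17.1% of all genes tested. The control E6578 had the lowest level of 20 of 30 mitotic genes (66.7%) and 6 of 12 S phase genes (50%), beside 11.9% of all genes tested. Its library was also the smallest, at 31148047 counts. The mean deviation of the mitotic genes from their own means, on the log2(CPM + 1) scale, was -0.16, 0.23, -0.08 and 0.10 in the Ager-deleted mice and 0.00, 0.06, -0.25 and 0.09 in the controls. For the S phase genes it was -0.06, 0.15, -0.13 and 0.13 in the Ager-deleted mice and 0.07, -0.01, -0.23 and 0.09 in the controls. Over all genes tested the same mean lay between -0.02 and 0.02 in every mouse. Each genotype thus held mice with high and with low levels, and the spread within a genotype was larger than the difference between genotypes.

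**Figure D4:**
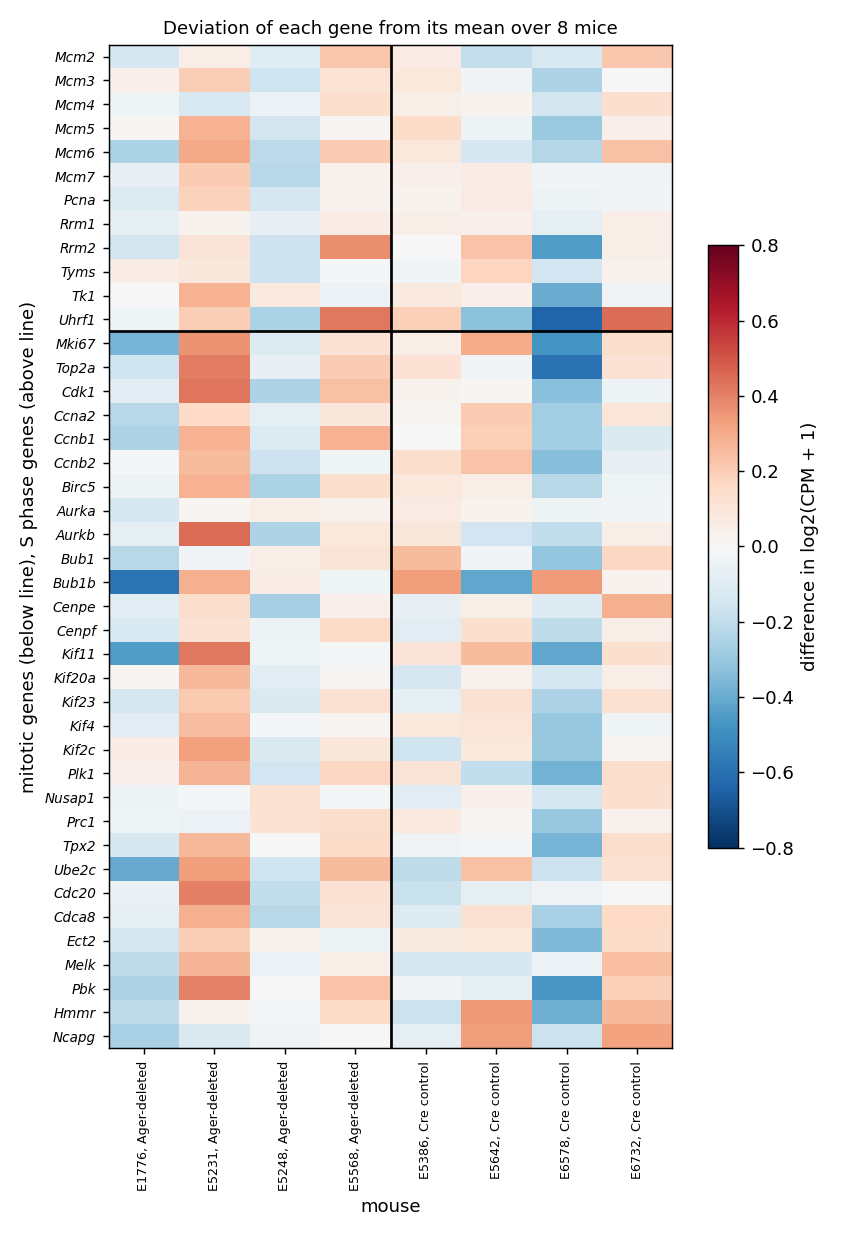
Deviation of each of the 42 genes in each mouse from its mean over 8 mice, as a difference in log2(CPM + 1) (red above the mean, blue below it), with S phase genes above the horizontal line and Ager-deleted mice left of the vertical line. E5231 is red and E6578 blue for most genes, and Bub1b departs from this pattern.

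Across the 8 mice the median Pearson r between pairs of genes was 0.63 for the 66 S phase pairs, 0.62 for the 435 mitotic pairs and 0.60 for the 360 pairs of 1 gene from each list. These pairs share libraries and depth, and r is given as a description. The share of all genes tested, or of all gene pairs, with r as high was not counted. The values below therefore do not show that these genes moved together more than other genes did. With Mki67, r was over 0.5 for 26 of the other 29 mitotic genes and 10 of the 12 S phase genes, highest for Ccna2 (0.99) and Kif11 (0.97). The exceptions among mitotic genes were Bub1b (0.06), Nusap1 (0.44) and Cdc20 (0.46), and among S phase genes Mcm2 (0.42) and Mcm4 (0.39). The median range from the lowest to the highest mouse was 1.82-fold for mitotic genes and 1.39-fold for S phase genes, beside 1.42-fold for all genes tested.

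Mki67 was set against 8 genes taken as readouts of proliferation or of a cell type. On the log2(CPM + 1) scale over 8 mice, Mki67 and Top2a had Pearson r = 0.86 (exact permutation p = 0.00466, adjusted p = 0.0373 over the 8 relations) and Spearman rho = 0.83 (exact permutation p = 0.0154, adjusted p = 0.112), and r was 0.60 without E1776 and E6578, the mice farthest from the median of Mki67. With Mcm5, r was 0.70 (exact permutation p = 0.0525, adjusted p = 0.19) and rho 0.57 (exact permutation p = 0.151, adjusted p = 0.302), and r was 0.61 without those mice. Aif1, a microglial gene, gave r = 0.16 (exact permutation p = 0.698, adjusted p = 0.798), rho = 0.12 (exact permutation p = 0.793, adjusted p = 0.793) and r = 0.74 without the same mice. Clec7a, which is raised in disease-associated microglia, gave r = 0.47 (exact permutation p = 0.232, adjusted p = 0.372), rho = 0.64 (exact permutation p = 0.0962, adjusted p = 0.256) and r = 0.72 without them. Pdgfra, of oligodendrocyte precursors, gave r = -0.26 (exact permutation p = 0.529, adjusted p = 0.705), rho = -0.19 (exact permutation p = 0.665, adjusted p = 0.76) and r = 0.39 without them. Cd3e, of T cells, gave r = 0.66 (exact permutation p = 0.0714, adjusted p = 0.19), rho = 0.79 (exact permutation p = 0.0279, adjusted p = 0.112) and r = 0.90 without them, at counts of only 3 to 23 per mouse. Col1a1, of fibroblasts, gave r = -0.03 (exact permutation p = 0.984, adjusted p = 0.984), rho = 0.19 (exact permutation p = 0.665, adjusted p = 0.76) and r = 0.10 without them. Leaving out those mice thus lowered r for Top2a and Mcm5. It raised r for Aif1, Clec7a, Pdgfra, Cd3e and Col1a1, with a change of sign for Pdgfra and Col1a1. For Acta1, of skeletal muscle, the mice fell into separate clusters (241 and 377 CPM in E5386 and E5642, at most 5.81 CPM elsewhere), so no pooled r is given, although this relation is counted among the 8 over which the p-values were adjusted.

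Genes listed here as markers of bone marrow granulocyte precursors were lowest in the same mice as Mki67. The 9 markers, which include the granule enzymes Mpo and Elane, summed to 30.1, 257, 71.1 and 162 CPM in Ager-deleted mice against 263, 235, 63.1 and 153 CPM in controls. S100a9 (9.55 to 92.4 CPM) and S100a8 (6.58 to 68.9 CPM) were the largest parts of the sum in every mouse, whereas Mpo and Elane reached at most 4.45 and 2.32 CPM. The sum thus mainly follows S100a8 and S100a9. The name precursor is that of the list, and whether the sum measures dividing precursors or granulocytes that no longer divide was not tested. The mice E1776, E5248 and E6578, lowest for Mki67 and Ccna2, were also lowest for this sum and for each of the 9 markers, 3 mice in all from both genotypes. All 9 markers had counts in every mouse. Mpo and Elane, chosen after their levels had been seen, gave r = 0.92 and r = 0.95 with Mki67, Spearman rho of 0.81 and 0.95, and r = 0.68 and 0.90 without E1776 and E6578, as a description with no test, since they were picked for this pattern. Their part in the levels of the cell cycle genes was not tested.

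The 10 microglia markers summed to 2340, 2640, 1490 and 1760 CPM in Ager-deleted mice against 2200, 2200, 2080 and 1930 CPM in controls, highest in E5231 but lowest in E5248. The 8 markers of disease-associated microglia lay between 5420 and 10300 CPM and the 5 of oligodendrocyte precursors between 191 and 278 CPM. The 7 T cell markers were low, at 4.62, 8.17, 4.54 and 5.94 CPM in Ager-deleted mice against 4.10, 6.55, 5.14 and 7.17 CPM in controls. The 4 mice with the highest T cell sums (E5231, E6732, E5642 and E5568) were also the 4 highest for Mki67, whereas the lowest sum was that of E5386, and the part of T cells in the levels of the cell cycle genes was not tested. The 6 erythroid markers lay between 73.1 CPM in E1776 and 428 CPM in E6578, so that the mouse lowest for most mitotic genes was highest for these. The lists of astrocytes (11000 to 16100 CPM), neurons (1790 to 2460 CPM), oligodendrocytes (19900 to 22500 CPM), ependyma (61.3 to 86.8 CPM) and endothelium (175 to 257 CPM) ranged over mice by at most 1.47-fold, and those of fibroblasts (99.3 to 526 CPM) and Schwann cells (269 to 1320 CPM) by 5.30-fold and 4.90-fold, both with the highest value in E5642 and the lowest in E5386.

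**Figure D5:**
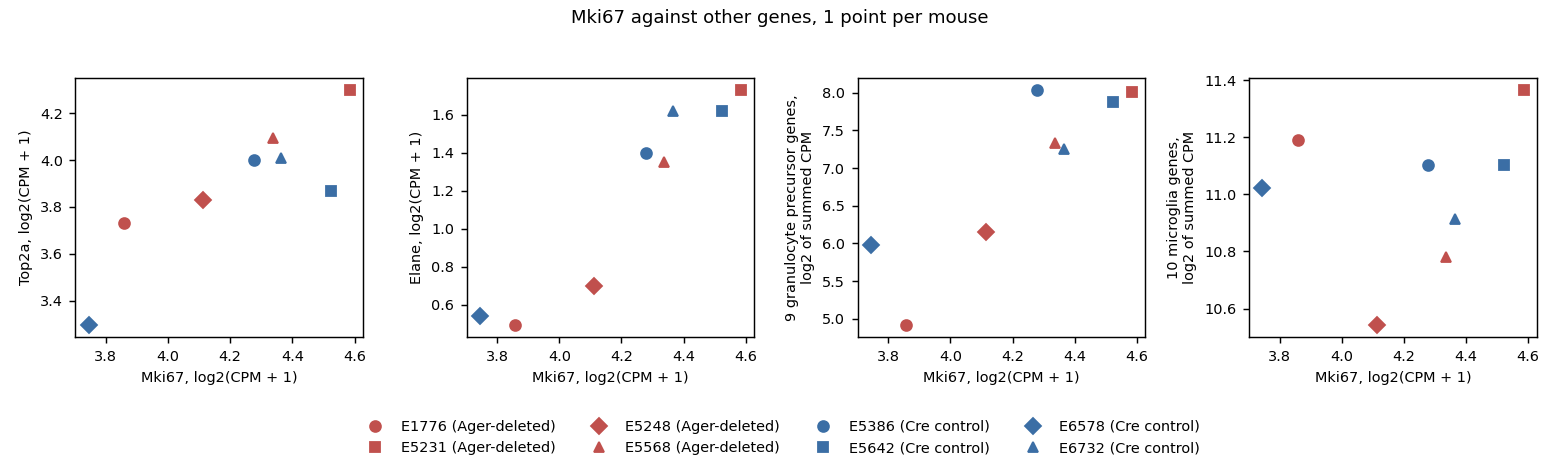
Mki67 in each mouse (horizontal axis, log2(CPM + 1)) against Top2a, Elane, the log2 summed level of 9 granulocyte precursor genes and that of 10 microglia genes, with Ager-deleted mice in red and controls in blue. Top2a rises with Mki67 in mice of both genotypes (r = 0.86). Elane does so too (r = 0.95), but it was picked for this pattern after its levels had been seen. The microglia genes summed to 2080 and 2340 CPM in E6578 and E1776, the lowest mice for Mki67. No r was computed for their sum, and the single genes Aif1 and Clec7a gave r = 0.74 and 0.72 without those mice.

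When the log2 summed level of the granulocyte precursor markers was added to the quasi-likelihood model, a fit made after those levels had been seen, 0 of 42 genes passed an adjusted p of 0.05, and the smallest adjusted p was 0.885. In that fit 3 of the 42 genes had an unadjusted p under 0.05, namely Top2a (log2 fold change 0.36, SE 0.12), Cdk1 (0.35, SE 0.13) and Pbk (0.38, SE 0.15), each with an adjusted p of 0.885. The share of all genes at that level in this fit was not counted, so these 3 genes are given as a description only. The median log2 fold change was then 0.10 for S phase genes and 0.17 for mitotic genes.

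The other genes of the pathway were read from the same fit, as 96 genes in 8 lists. None of the 96 passed an adjusted p of 0.05 in the edgeR exact test (0.0719% of all genes), and 2 had an unadjusted p under 0.05 (4.26% of all genes); the counts at that level were 5 with the quasi-likelihood test (6.71% of all genes), 6 with DESeq2 (6.54%) and 6 with limma-voom (6.11%). The 8 lists of G1 cyclins and kinases, inhibitors of cyclin-dependent kinases, RB and E2F, MuvB with MYBL2 and FOXM1, licensing and the replication fork, G2 control, other mitosis, and p53 and its targets had median log2 fold changes of -0.02, -0.19, -0.13, 0.03, 0.01, -0.04, 0.05 and -0.11.

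The pair with an unadjusted p under 0.05 lay in different lists and opposite directions. Mybl2, the MYB protein that joins MuvB to start transcription of mitotic genes, was at 1.70, 1.91, 1.95 and 1.5 CPM in Ager-deleted mice against 1.15, 0.926, 1.24 and 1.34 CPM in controls. Every Ager-deleted mouse lay above every control, and the log2 fold change was 0.59 (SE 0.17, 95% interval 0.22 to 0.98), with p = 0.00534 (adjusted p = 0.608) in the edgeR exact test and p = 0.0286 in the exact permutation test, the smallest it can give. Its counts were low, between 30 and 71 per mouse. Smc4, a core subunit of the condensin complexes that also hold Ncapg, was at 14, 15.4, 18.1 and 16.2 CPM in Ager-deleted mice against 17.8, 23.6, 19.0 and 21.5 CPM in controls. The log2 fold change was -0.36 (SE 0.11, 95% interval -0.61 to -0.12), with p = 0.00731 and an adjusted p of 0.662 in the edgeR exact test and p = 0.0571 in the exact permutation test; E5386 lay just under the highest Ager-deleted mouse. Foxm1, the factor that takes over from MYBL2 in G2, was at 6.38, 6.66, 4.94 and 6.31 CPM in Ager-deleted mice against 5.66, 5.43, 5.33 and 6.44 CPM in controls, with a log2 fold change of 0.08. In the MuvB list the genotypes also did not overlap for Lin37 (log2 fold change 0.17) and Lin54 (log2 fold change -0.20), named after their values were seen, and these with Mybl2 made 3 of 6 genes, beside 3.88% of all genes. There were 0 such genes in the other 7 lists, so the count over the whole pathway was 3 of 96, no higher a share than that of all genes.

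Among the genes that control entry into S phase, Ccnd1 and Cdk4 were far more abundant than the mitotic genes. Ccnd1, cyclin D1, was at 103, 106, 87.2 and 90.4 CPM in Ager-deleted mice against 106, 89.8, 77.9 and 137 CPM in controls, with a log2 fold change of -0.09 (SE 0.15, 95% interval -0.42 to 0.25). Cdk4, its kinase, was at 49.9, 59.1, 46.4 and 54.0 CPM in Ager-deleted mice against 49.3, 48.5, 48.0 and 53.3 CPM in controls, with a log2 fold change of 0.07. Per kilobase of exon, Ccnd1 and Cdk4 stood at means of 21.2 and 15.7 CPM, beside 0.401 for Ccnb1. Cdkn1a, which encodes the inhibitor p21, was at 92.0, 84.6, 73.6 and 90.3 CPM in Ager-deleted mice against 65.3, 162, 117 and 56.8 CPM in controls. Its highest and lowest values, 2.84-fold apart, both came from controls, and the log2 fold change was -0.23 (SE 0.28, 95% interval -0.86 to 0.39). Rb1 was at 69.5, 71.3, 77.5 and 59.4 CPM in Ager-deleted mice against 84.1, 71.9, 68.0 and 81.0 CPM in controls, with a log2 fold change of -0.14 (SE 0.09, 95% interval -0.34 to 0.07). E2f1 was at 8.51, 7.17, 5.59 and 7.55 CPM in Ager-deleted mice against 7.14, 6.73, 7.41 and 7.88 CPM in controls, with a log2 fold change of -0.02, and the genotypes overlapped for all of these genes.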

How the data were processed

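RNA was sequenced from the lumbar cord of 8 mice, grouped by genotype as in the sample labels. The authors trimmed reads with Trimmomatic 0.36, aligned them to mm10 with STAR 2.7.3a, and deposited raw counts per gene made with featureCounts of Subread 1.6.3. The authors also deposited log2 values, normalized in edgeR 3.26.8, which were used only to check that the same 19470 genes and values are obtained from the counts. The strand setting of the counting is not given in the sources used here. From the raw counts, genes were filtered with filterByExpr (minimum 10 counts), scaled with TMM (the trimmed mean of M values) and compared with the exact test of edgeR 4.0.16 (R 4.3.3) after estimateDisp, adjusted by the Benjamini-Hochberg method over 19470 genes at a threshold of 0.05. Standard errors and 95% intervals came from the quasi-likelihood fit. Single genes were also compared by an exact two-sided permutation test of mean log2(CPM + 1) over 70 assignments in scipy 1.17.1, and correlations by exact permutation of mice. Positions and exon lengths are from GENCODE M21 (GRCm38), matched by symbol, and promoters from RefSeq. Depth was 31148047 to 40324897 counts per mouse, so 3 counts are at most 0.0975 CPM, and intervals or floors on counts cover counting error only. The tests were tried on simulated counts before use.

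The 42 genes, the pathway and marker lists, the tests and the alternatives were chosen with earlier results of these data known. The rule for genes given with values in every mouse took any of the 42 with an unadjusted p under 0.05 (0 genes), the 5 largest log2 fold changes among the 42, and 23 of the 42 that stand for the main roles, 26 genes in all since some met both conditions. From the pathway lists it took 6 genes by name and the 2 with an unadjusted p under 0.05, and beside these the targeted gene Ager. Alternatives were RLE size factors, library size only, no filter or 1 CPM in 4 mice, DESeq2 1.42.0, limma-voom 3.58.1, other dispersions, a pseudocount of 0.5 CPM, each mouse left out, and the controls E5386 and E5642 left out. The covariate fit and the correlations with Mpo and Elane were added after the data were seen. No batch is given by the labels, and each mouse is 1 animal.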

Additional observations from a re-analysis of the deposited data

Results flagged for a closer look

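Among 100 sets of 4 mice (42 cell cycle genes and 8 other pathway genes, in each genotype), 2 had a mouse that stood apart from the other mice of its genotype by Dixon's gap test, where chance flags about 1 in 20. The Rrm1 level of the control E6578 was 35.1 CPM, below 38.1 to 38.4 CPM in the other controls, a gap of 0.919 of the range. The Nusap1 level of the Ager-deleted mouse E5248 was 7.56 CPM, above 6.65 to 6.79 CPM in the others of its genotype, a gap of 0.848 of the range.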

How the results depend on the processing

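No paired analysis was possible because the labels give no replicate numbers, litters or batches that pair mice across genotypes. Under every alternative run, 0 of the 42 cell cycle genes passed an adjusted p of 0.05, also at a threshold of 0.10. With TMM, the median log2 fold change over all genes was 0.01, and it moved by less than 0.1 under the other scalings. The number of all genes called was 14 and became 25 with DESeq2, 78 with common and tagwise dispersions, 8 with a filter of 1 CPM in 4 mice, 1 with limma-voom, 1 with the quasi-likelihood test, 1 with the granulocyte precursor covariate, 67 without the controls E5386 and E5642, 48 at an adjusted p of 0.10, and between 3 (without E5231) and 98 (without E6578) with 1 mouse left out; it was 72 without E5386, 89 without E6732, 53 without E5248, and 8 without E5568 or without E5642. The median log2 fold change with 1 mouse left out lay between -0.04 and 0.11 for S phase genes and between -0.04 and 0.12 for mitotic genes. CHR letters upstream of the start site alone stood in 12 mitotic promoters. Because most log2 fold changes lay near 0, 29 of the 42 changed sign somewhere, none of them larger in size than 0.19; the causes were not tested. With library size only, the log2 fold changes that turned were Mcm7 0.01, Pcna 0.02, Tyms 0.01, Mki67 0.02, Aurka 0.005 and E2f1 0.005. With limma-voom it was Ube2c -0.005. With the covariate they were Mcm7 0.03, Pcna 0.04, Rrm1 0.001, Tyms 0.02, Mki67 0.17, Ccna2 0.09, Aurka 0.02, Bub1 0.05, Kif11 0.16 and Hmmr 0.07. Without the controls E5386 and E5642 they were Mcm2 -0.05, Mcm6 -0.001, Mcm7 0.01, Pcna 0.02, Tyms 0.05, Mki67 0.16, Ccna2 0.08, Aurka 0.03, Bub1 0.04, Kif11 0.14, Melk -0.16 and Hmmr 0.01. With 1 mouse left out, the log2 fold changes of genes that turned ranged as follows: Aurka -0.05 to 0.04, Aurkb -0.04 to 0.32, Birc5 -0.03 to 0.20, Bub1 -0.27 to 0.02, Bub1b -0.32 to 0.01, Ccna2 -0.13 to 0.05, Ccnb2 -0.12 to 0.12, Ccnd1 -0.20 to 0.09, Cdca8 -0.07 to 0.17, Cdkn1a -0.43 to 0.09, Cenpe -0.18 to 0.01, Cenpf -0.001 to 0.12, E2f1 -0.11 to 0.09, Ect2 -0.12 to 0.09, Hmmr -0.23 to 0.08, Kif11 -0.23 to 0.11, Kif23 -0.04 to 0.12, Kif4 -0.01 to 0.15, Mcm2 -0.07 to 0.10, Mcm4 -0.09 to 0.01, Mcm5 -0.02 to 0.15, Mcm6 -0.08 to 0.13, Mcm7 -0.10 to 0.05, Melk -0.12 to 0.25, Mki67 -0.15 to 0.11, Nusap1 -0.02 to 0.09, Pcna -0.08 to 0.03, Rrm2 -0.05 to 0.18, Tyms -0.08 to 0.04, Ube2c -0.12 to 0.20 and Uhrf1 -0.04 to 0.41. Ager passed the threshold in 1 alternative, without E5386, at a log2 fold change of -0.94. Depth limits the genes with low counts, such as Bub1, Melk and Kif2c at 27 to 80 counts per mouse.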

Other observations

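The genes whose levels over the 8 mice were most like that of Mki67 were read from all 19469 other genes tested, by Pearson r on the log2(CPM + 1) scale, as a description chosen after the data were seen. Of the 20 genes with the highest r, 3 were among the 42 cell cycle genes (Ccna2, r = 0.99; Kif11, r = 0.97; Kif23, r = 0.93) and 1 was another mitotic gene of the pathway lists (Kif15, r = 0.92). Brip1, a DNA helicase of replication-coupled repair, had r = 0.97, and Asf1b, a histone chaperone of S phase, had r = 0.92. A further 2 were granulocyte precursor markers (Elane, r = 0.95; Mpo, r = 0.92). Blood cell genes on no list were also present, with r = 0.94 for Trem3 and r = 0.94 for Nfe2, a factor of megakaryocytes and erythroid cells. Trem3 was at 0.127, 0.997, 0.282 and 0.439 CPM in Ager-deleted mice against 0.465, 0.618, 0.130 and 0.438 CPM in controls. Gata1, the erythroid factor, had r = 0.92 and was at 0.127, 0.566, 0.169 and 0.336 CPM in Ager-deleted mice against 0.164, 0.587, 0 and 0.535 CPM in controls. Its counts were only 0 to 22 per mouse, and the 0 counts in E6578 allow up to 0.0975 CPM. The 6 erythroid markers, by contrast, had their highest sum (428 CPM) in E6578, the lowest mouse for Mki67. Cryz, a quinone oxidoreductase, had r = 0.97 over a range of only 21.8 to 25.3 CPM. Their part in the levels of the cell cycle genes was not tested.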
